A study of Drosophila melanogaster with 6 samples.

Results

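Control larvae, three-day-old whole Drosophila melanogaster larvae without a Tip60 transgene, were profiled on 2 of the 6 Affymetrix Drosophila Genome 2.0 arrays of the series. Both arrays labelled Control were taken, the Affymetrix control probe sets were left out, and genes were ranked by the mean intensity of the 2 arrays. The ranking holds 11982 genes, each represented by its brightest probe set among those with exactly 1 gene symbol. The study asked how a Tip60 histone acetyltransferase with a changed catalytic residue affects development and transcription. Control larvae came from w1118 mothers and 337-GAL4 fathers. The other genotypes were dTIP60E431Q and dTIP60WT, each carrying its transgene with the same 337-GAL4 driver, which is expressed ubiquitously, so the controls carried the driver too; by the methods, 1 line of each transgene was used, its highest expresser. Each array received RNA from its own pool of 35 whole larvae, raised for 3 days at 25°C from embryos collected over 3 hours. The labels do not separate the sexes, and whether the pools came from separate crosses is not stated. The methods call larvae of this age second instar, while the labels give the age only.

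Larval life is a period of feeding and rapid growth. The midgut secretes digestive proteases, the fat body stores nutrients and loads the hemolymph with storage and lipid carrier proteins, the body wall muscles drive crawling, and the epidermis builds a new cuticle before each molt. The steroid ecdysone times the molts, and late in larval life it directs the salivary glands to make the glue that fixes the puparium. A whole-animal extract mixes all of these tissues, so that fewer cells of a type and less RNA per cell cannot be told apart.

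Intensity is the linear, arbitrary unit deposited for each probe set. It depends on how well the probes of a set hybridise as well as on transcript number, so the ranks below are ranks of signal and not of molecules. The median over probe sets was 44.4 in pool 1 and 43.6 in pool 2, and the brightest probe set reached 16964 in pool 1 and 18115 in pool 2. Over the 11982 genes the median of the 2-pool mean was 90.2, the lowest decile ended at 10.8 and the highest began at 863. A mean of at least 1000 was reached by 1067 genes, of at least 5000 by 231 and of at least 10000 by 67. The top 100 genes carried 20.6% of the signal summed over all genes in each pool. Across the 11982 genes the log2 intensities of the pools had a Pearson r of 0.97 and a Spearman rho of 0.98, a description across genes, which are not independent replicates.

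A background level was set from genes with little expected use in a whole larva, namely odorant, gustatory and ionotropic receptors, egg shell proteins and male accessory gland proteins. Some of these receptors work in a few larval sensory neurons, so the level is not a measure of absence. The 198 genes had a median of 12.3, and the level was their 90th percentile, 33.8. By this rule 7973 genes, 66.5%, lay above background in both pools, 3377 lay at or below it in both, and 632 lay on different sides in the 2 pools. The highest of the 198 was Acp95EF, a male accessory gland peptide gene, with 143 in pool 1 and 145 in pool 2, and it was the only one of 18 accessory gland genes above the level.

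The highest signals belonged to ribosomal proteins, digestive proteases, muscle proteins, cuticle proteins and proteins of the hemolymph. RpL41, a protein of the large ribosomal subunit, ranked first with 15488 in pool 1 and 16972 in pool 2. Nplp2, annotated as a neuropeptide-like precursor, ranked next with 15461 and 16385. Vajk2 gave 14753 and 15642, and its genomic neighbour Vajk3 gave 11640 and 12383. The cuticle protein Cpr47Eg gave 14411 and 15446. Both pools placed these genes within 1.10-fold of each other. The gene at rank 100, ND-MLRQ, gave 8486 and 8770.

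**Figure D1:**
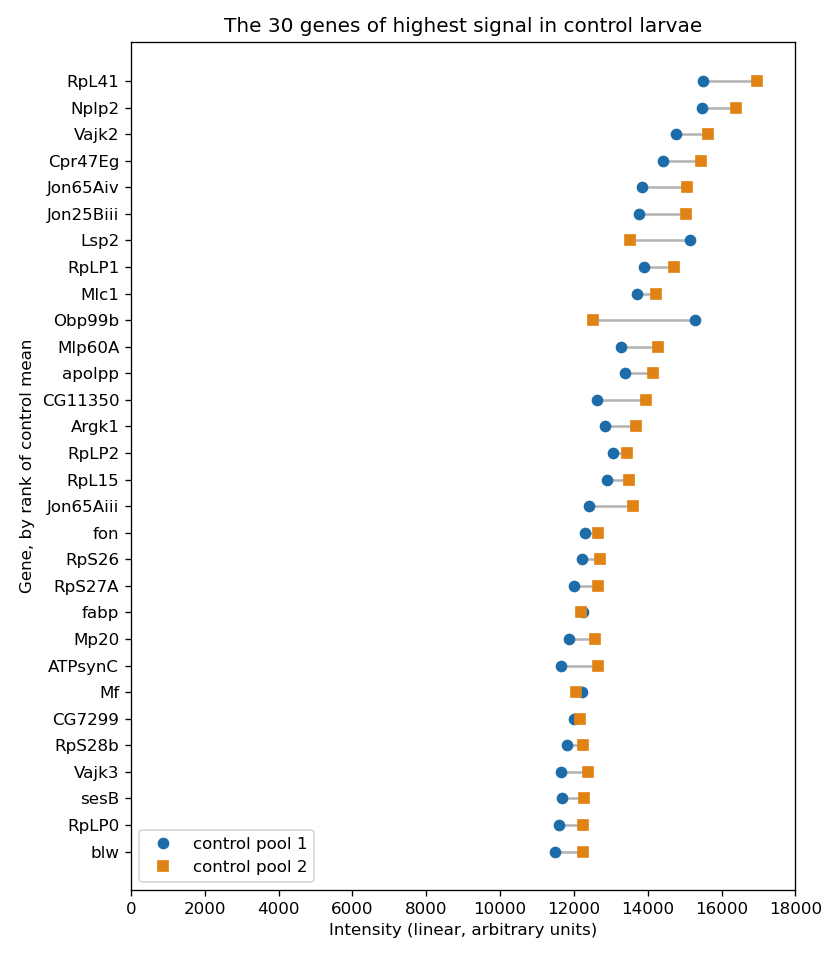
Intensity of the 30 genes of highest control mean, 1 gene per line, on a linear axis that starts at 0; circles are control pool 1 and squares are control pool 2, joined by a grey line. The pools lie close together at every gene, and Obp99b, with 15273 and 12504, has the widest gap.

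Among the digestive enzymes, the Jonah serine protease Jon65Aiv gave 13855 in pool 1 and 15077 in pool 2, Jon25Biii gave 13751 and 15026, and Jon65Aiii, which adjoins Jon65Aiv in the genome, gave 12402 and 13591. Lsp2, a larval serum protein made by the fat body and stored for metamorphosis, gave 15146 and 13517. The lipid carrier precursor apolpp gave 13385 and 14140, and fondue (fon), a clotting factor of the hemolymph, gave 12307 and 12656. Obp99b, an odorant-binding family member, gave 15273 and 12504. Of the 30 genes, 4 had more signal in pool 1: Lsp2, Obp99b, fabp and Mf.

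Muscle genes followed. The myosin light chain gene Mlc1 gave 13696 in pool 1 and 14236 in pool 2, the muscle LIM protein Mlp60A gave 13286 and 14281, myofilin (Mf) gave 12217 and 12044, and Mp20 gave 11858 and 12560. Energy genes of the top 30 were arginine kinase (Argk1) with 12829 and 13688, the ATP synthase subunits ATPsynC with 11655 and 12665 and blw with 11475 and 12255, and the mitochondrial ADP/ATP carrier sesB with 11675 and 12286. The fatty acid binding protein fabp gave 12237 and 12190. The remaining ribosomal genes of the top 30 were RpLP1, RpLP2, RpL15, RpS26, RpS27A, RpS28b and RpLP0, all between 11593 and 14713 in both pools. CG11350 gave 12630 and 13953 and CG7299 gave 11989 and 12157, and neither has a role given here.

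By list, the top 100 held 25 of 34 cytosolic ribosomal proteins, 7 of 15 larval body wall muscle genes, 6 of 39 midgut genes, 6 of 73 nuclear genes of oxidative phosphorylation, 4 of 7 larval cuticle genes and 4 of 8 translation factors. Genes in none of the lists made up 32 of the 100. Genes known only by a CG or CR number were 13.0% of the top 100, against 43.6% of all genes. The pools lay within 1.2-fold of each other for 98 of the top 100 genes, against 63.0% of all genes. The exceptions were Obp99b and CG34166, the second at 12105 in pool 1 and 9079 in pool 2, a 1.33-fold gap. Pool 2 was the higher for 87 of the 100.

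The top 100 of single arrays overlapped by 95 genes between the control pools. A control array shared 59 to 63 of its top 100 with a dTIP60E431Q array and 90 to 95 with a dTIP60WT array. Duplicates shared 88 in dTIP60E431Q and 91 in dTIP60WT. All 4 pairings of a control with a dTIP60E431Q array shared fewer genes than any pair of duplicates did.

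Fat body and hemolymph storage genes were mostly bright. Of 5 measured, 4 lay above background in both pools, with a median of 7519. Beside Lsp2 and apolpp, Fbp2 gave 9579 in pool 1 and 5458 in pool 2, and Mtp, which transfers lipid to lipoproteins, gave 1276 and 1231. Fbp1, which encodes the fat body receptor that takes storage proteins back up from the hemolymph, stood apart, with 1329 in pool 1 and 7.09 in pool 2.

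Midgut digestion genes were present in number. Of 39 midgut digestion genes 37 lay above background, with a median of 1284, and of 16 genes of the peritrophic matrix, the chitin and protein lining of the gut, and related chitin-binding genes 14 did, with a median of 1104. Epsilon trypsin (epsilonTry) gave 9515 in pool 1 and 10438 in pool 2, the lysozyme LysS gave 8148 and 8061, and maltase A3 (Mal-A3) gave 2077 and 2292. Among the chitin-binding genes, obst-E gave 9242 and 9259 and Peritrophin-15a gave 8692 and 8630. One midgut gene differed by more than 2-fold, the trypsin-like lambdaTry, at 222 in pool 1 and 480.3 in pool 2.

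The cuticle lists were split by stage and family. Larval cuticle proteins were bright, with 6 of 7 above background and a median of 8894. Lcp65Ag3 gave 10008 in pool 1 and 11594 in pool 2, and Lcp9 gave 10429 and 9575. The pupal and adult list had a median of 143, with 5 of 9 above background, and its brightest member, Edg91, gave 464 and 572. Resilin, a rubber-like protein of elastic cuticle, gave 5.32 and 7.61, and Edg84A, a prepupal cuticle gene, gave 2.34 and 2.45. Of 66 Cpr genes 49 lay above background, 74.2%, with a median of 188, and of 24 Tweedle genes, a family of cuticle proteins, 17 did, 70.8%, with a median of 214. Both shares are near the 66.5% of all genes. TwdlO gave 7660 in pool 1 and 9000.1 in pool 2 and TwdlP gave 5690 and 6739. Of 23 Osiris genes, a gene family that lies largely in 1 cluster, 3 lay above background.

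Larval muscle and adult muscle gave opposite pictures. All 15 larval body wall muscle genes lay above background, with a median of 8523. Actin 87E (Act87E) gave 10613 in pool 1 and 10580 in pool 2, tropomyosin 2 (Tm2) gave 10200 and 10666, and the titin-like sls gave 2311 and 2356. In the list of adult flight and leg muscle 1 of 5 lay above background, with a median of 15.5. The flight muscle actin Act88F gave 12.4 and 15.9, flightin (fln) gave 14.9 and 12.4, and Act79B, an actin of leg and other adult muscles, gave 97.4 and 80.4.

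Pan-neuronal genes were mostly dim, glial genes lay on both sides of the median over all genes, and single genes of the neuropeptide list were bright. Of 19 pan-neuronal genes 13 lay above background, 68.4% against 66.5% of all genes, with a median of 68.0 against 90.2. The RNA-binding neuronal marker elav gave 278 in pool 1 and 274 in pool 2, the microtubule-associated futsch gave 168 and 146, and the synaptic vesicle gene nSyb gave 8.82 and 3.59. Of 9 glial genes 7 lay above background, 77.8%, with a median of 73.6. The brightest were nrv2 at 357 and 336, Gli at 259 and 245, loco at 231 and 207, and moody at 200 and 232. The glial transcription factor repo gave 65.7 and 81.5. Among 29 neuropeptide genes, 17 lay above, 58.6% against 66.5% of all genes. Beside Nplp2 the brightest were Nplp4, at 8453 and 8950, CCHa2, at 475 and 506, and the insulin-like gene Ilp5, at 205 and 193. A whole-larva extract does not show which tissue gave these signals.

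Most members of the hemocyte, Malpighian tubule and tracheal lists lay above background, as did 66.5% of all genes. Of 15 hemocyte genes 13 lay above background, with a median of 319. The Nimrod family gene NimB2 gave 1510 in pool 1 and 1480 in pool 2, and the crystal cell enzyme PPO2 gave 1299 and 927. Next came PPO1 at 1026 and 808 and atilla at 677 and 667, while the prophenoloxidase gene PPO3 gave 15.3 and 12.8. All 6 Malpighian tubule genes lay above background, but the brightest, the proton pump subunit Vha16-1 at 9817 and 10942, is used in many tissues. In the tracheal list, which holds 6 of 7 genes above background, the chitin deacetylases serp, at 6582 and 7170, and verm, at 2495 and 2771, led, while the FGF receptor btl gave 18.7 and 27.8.

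The median of the imaginal disc list lay below that of all genes and the median of the replication list above it, with members of each list on both sides. Of 16 disc patterning genes 15 lay above background, with a median of 66.8 and a highest mean of 149, against a median of 90.2 over all genes. Antp, a Hox gene of the thorax, gave 138 in pool 1 and 160.4 in pool 2, and Dll, which patterns the limbs, gave 131 and 125. All 17 DNA replication genes lay above background, with a median of 132. PCNA, the polymerase clamp, gave 588 and 566, and RnrL, the large subunit of ribonucleotide reductase, gave 329 and 355. All 69 mitochondrial ribosomal proteins lay above background, between 225 and 1548, against a median of 10770 for cytosolic ribosomal proteins.

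Of 26 genes of the ecdysone response 12 lay above background, a share of 46.2%, lower than the 66.5% over all genes. ImpL2, a binding protein for insulin-like peptides, gave 731 in pool 1 and 826 in pool 2, and the transcription factor broad (br) gave 505 and 343. The receptor gene EcR gave 161 and 147 and its partner usp gave 164 and 164. Hr39 gave 305 and 270, Sox14 gave 300.04 and 241, ftz-f1 gave 174 and 217, Eip63E gave 190.04 and 192, and ImpL1 gave 161 and 132. Hr38, ImpE1 and E23 were above background at 36.0 to 93.1. The nuclear receptor Hr3 gave 7.91 and 5.6, and Eip93F, which acts at metamorphosis, gave 4.86 and 5.06. The other members, Hr4, ImpE2, ImpE3, Eip78C and 8 genes of the Eig71E cluster, lay between 1.63 and 36.9 in both pools. No member of the list differed by 2-fold between the pools with its higher pool above background. Eig71Ee, an ecdysone-regulated gene counted in the salivary list instead, did differ, with 251 in pool 1 and 8.71 in pool 2. In the ecdysone synthesis list 4 of 8 lay above background, 50.0%. They were Npc1a at 242 in pool 1 and 224 in pool 2, shd at 187 and 174, spok at 133 and 103, and sro at 121 and 82.6. Of the others, sad gave 40.5 and 26.9, nvd gave 22.6 and 15.4, dib gave 14.6 and 14.05, and spo gave 1 and 1.49. In the juvenile hormone list 7 of 9 lay above background, 77.8%, with the epoxide hydrolase Jheh2 at 1027 and 1039 and Kr-h1, a target of the hormone, at 156 and 129.

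Salivary genes fell into a bright and a low group. The new glue genes ng3, at 7647 in pool 1 and 6500.4 in pool 2, ng1, at 6367 and 6084, and ng2, at 3654 and 3705, were bright in both pools. The glue genes of the late larva were low: Sgs4 gave 216 and 140, Sgs5bis gave 232 and 101, and Sgs1 gave 59.1 and 30.1. Sgs5, Muc68D and ng4 lay at or below background in both pools, between 5.27 and 26.7. Sgs7, Sgs8, Sgs3 and Eig71Ee were above background in pool 1 and below it in pool 2, with values given below. In all, 5 of the 13 genes lay above background in both pools.

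Genes of other stages and of the adult were mostly low. Of 21 early embryo patterning genes 5 lay above background, led by Kr at 632 in pool 1 and 644 in pool 2, a gap gene that is also used in larval tissues. The maternal gene bcd gave 2.46 and 3.66, and the pair-rule gene ftz gave 1 and 3.5. Of the yolk protein genes, which adult females express, Yp1 gave 7.52 and 7.65 and Yp2 gave 1.31 and 1.99, while Yp3 gave 529 and 387. Among 17 genes of the late male germline 8 lay above background, the brightest being Mst98Ca at 181 and 177, and among 12 of the early germline 4 did, led by tud at 839 and 838. Of 10 phototransduction genes 3 lay above background, led by Galphaq, a G protein subunit, at 285 and 292.

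Odorant-binding proteins were an exception among the chemosensory families. Of 46 measured 18 lay above background, with a median of 28.3, but the brightest members were far above it. Beside Obp99b, Obp99c gave 6724 in pool 1 and 6767 in pool 2, Obp83g gave 3015 and 3113, and Obp44a gave 2833 and 2492. In contrast, 6 of 57 odorant receptors, 1 of 56 gustatory receptors and 1 of 53 ionotropic receptors lay above the level that they helped to set. The common odorant co-receptor Orco gave 9.69 and 24.4.

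Genes of defence and detoxification spread widely. Of 13 antimicrobial peptide genes 7 lay above background, 53.8% against 66.5% of all genes, with DptB at 267 in pool 1 and 414 in pool 2 and Mtk at 221 and 377. The glutathione transferase GstD1 gave 9969 and 10247, and 32 of 34 genes of that family lay above background, 94.1%. Of 80 cytochrome P450 genes 62 did, 77.5%, led by Cyp4g1, an enzyme of cuticular hydrocarbon synthesis, at 3162 and 2921. Tip60 itself had 1 probe set, with 30.8 in pool 1 and 29.2 in pool 2, both below the background level.

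**Figure D2:**
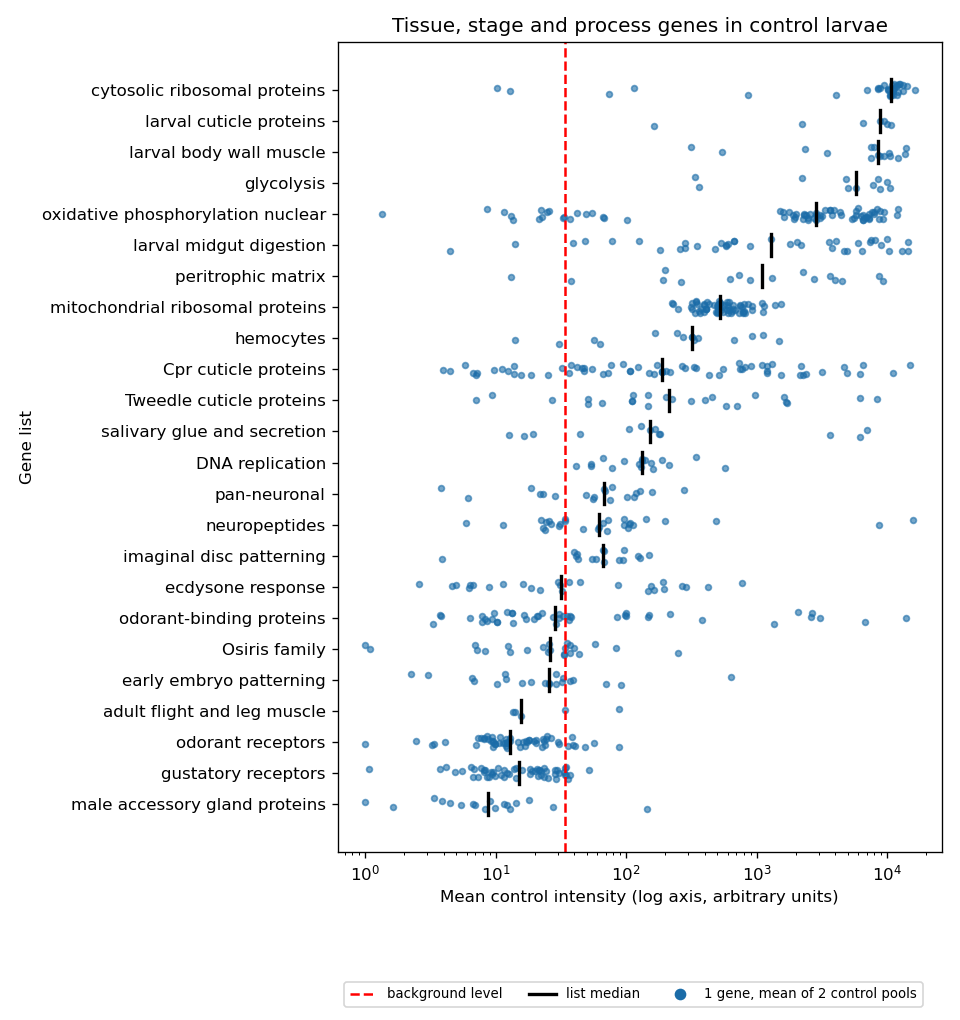
Mean control intensity of each gene in 24 lists, on a log axis; each point is 1 gene, the black bar is the list median and the red dashed line is the background level of 33.8. Ribosomal, larval cuticle and larval muscle lists lie mostly over 1000, while receptor, accessory gland and adult muscle lists lie mostly left of the line.

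The pools differed little for most genes. Among the 8605 genes whose higher pool lay above background, the median size of the log2 difference was 0.13, or 1.09-fold. By mean level it was 0.21 for genes between background and 100, 0.12 between 100 and 300, 0.09 between 300 and 1000, and 0.08 above that. A difference of 2-fold or more was found for 79 genes higher in pool 1, 0.918% of those compared, and for 130 higher in pool 2, 1.51%. At 4-fold these were 23 genes, 0.267%, and 57 genes, 0.662%. With 1 array a side there is no test of these differences, and the genes are described and not called significant. Just inside the 2-fold limit lay mAChR-C at 18.9 in pool 1 and 37.9 in pool 2, and just outside it CG12911 at 32.2 and 64.3.

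**Figure D3:**
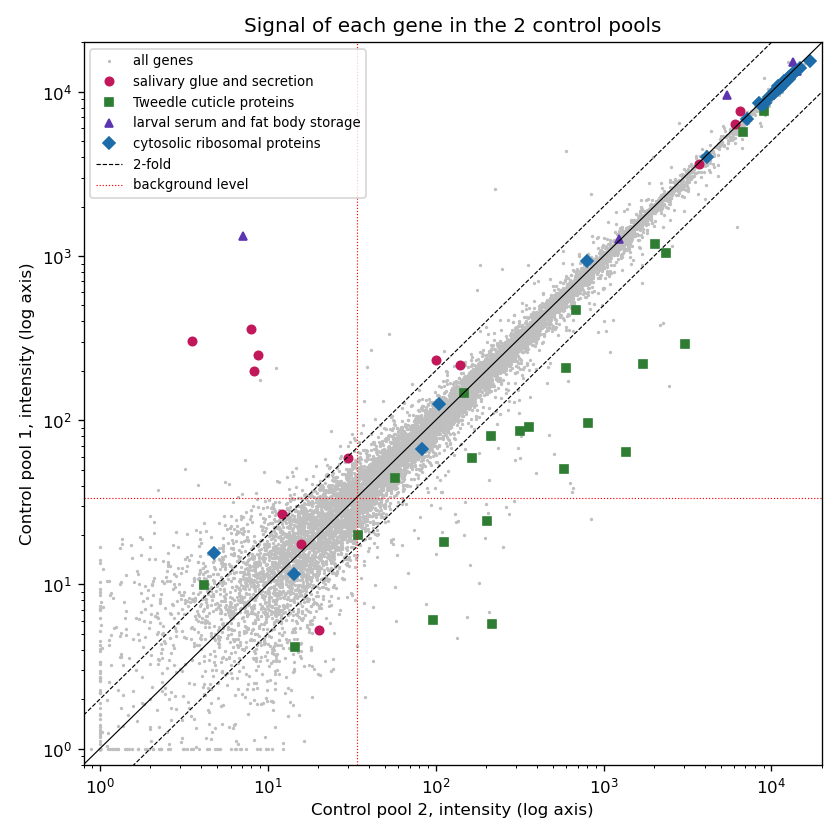
Intensity of each gene in control pool 1 (vertical) against control pool 2 (horizontal), both on log axes; dashed lines mark 2-fold differences, dotted lines the background level of 33.8, and coloured symbols 4 lists. Ribosomal genes over background follow the diagonal, and among genes whose higher pool is above background 15 Tweedle genes lie below the lower dashed line and 5 salivary genes above the upper one.

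The largest ratios towards pool 1 were those of Fbp1 and of 4 salivary genes. Fbp1, at 1329 in pool 1 and 7.09 in pool 2, was at least 39.3-fold higher when pool 2 is set to the background level, a bound that replaces any value under it. It was the only 1 of 5 storage genes past 2-fold, and apolpp was the higher in pool 2. The glue genes Sgs8, at 304 and 3.53, and Sgs7, at 359 and 7.95, are neighbours in the genome and were at least 8.98-fold and 10.6-fold higher. Sgs3 gave 201 and 8.31, a bound of 5.94-fold. Eig71Ee, an ecdysone-regulated gene of the same gland, gave 251 and 8.71, a bound of 7.41-fold. Of the 13 salivary genes 5 were at least 2-fold higher in pool 1 and 0 in pool 2, against 0.918% and 1.51% of all genes compared.

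Less studied genes shared that direction. CG17105 gave 2568 in pool 1 and 224 in pool 2, 11.4-fold, and its neighbour CG17107 gave 2375 and 837. CG34227 gave 4369 and 599.9, and CG43084 gave 177 and 9.02, which is at least 5.22-fold. CG14422 gave 207 and 11.2, and CG15225 gave 269 and 41.0. In the antimicrobial list 1 of 13 genes was at least 2-fold higher in each pool: the antifungal peptide gene Drs gave 886 in pool 1 and 184 in pool 2, and BomS2 gave 17.9 and 108.

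The genes higher in pool 2 included many cuticle genes, and 3 of them were among the 10 largest ratios. TwdlW gave 5.72 in pool 1 and 217 in pool 2, at least 6.41-fold, and TwdlB gave 63.7 and 1357, 21.3-fold. Ccp84Ae, a cuticle protein gene of the pupal and adult list, gave 38.8 and 661. The remaining Tweedle genes past 2-fold included TwdlM, at 290 and 3051, TwdlK, at 221 and 1715, and TwdlL, at 95.7 and 809.8, which adjoins TwdlB in the genome.

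By list, 15 of 24 Tweedle genes were at least 2-fold higher in pool 2 and 0 in pool 1, against 1.51% and 0.918% of all genes compared. The counts were 10 and 0 of 66 Cpr genes, 3 and 0 of 9 pupal and adult cuticle genes, and 4 and 1 of 23 Osiris genes. Larval cuticle genes did not share the shift except for Lcp65Ad, at 32.4 in pool 1 and 293 in pool 2, and the brightest Tweedle genes, TwdlO and TwdlP, differed by less than 1.2-fold. The median Tweedle gene gave 82.9 in pool 1 and 339 in pool 2.

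The other genes of the 10 largest ratios in that direction have no role given here. The 10 were ranked by the ratio as measured, and for several of them pool 1 lay below background, where the bound is smaller. CG32214 gave 25.2 in pool 1 and 841 in pool 2, at least 24.9-fold, and lies beside CG14096, which gave 139 and 364. CG17005 gave 6.77 and 209, CG12523 gave 4.72 and 134, CG14564 gave 6.31 and 154, and CG14573 gave 10.2 and 181, with bounds between 3.95-fold and 6.18-fold. CG13049 gave 41.6 and 629.8, and CG32181 gave 36.6 and 646. By the bound CG31626, at 162 and 2438, TwdlY, at 50.5 and 579, and TwdlM stand above those 4 genes and TwdlW, at 15.05-fold, 11.5-fold and 10.5-fold. CG14570, CG14569, CG14568 and CG14573 form a run of 4 adjacent genes, all at least 2-fold higher in pool 2, and 23 of the 130 genes lay in 10 such runs of 2 or more. Of the 79 genes higher in pool 1, 10 lay in 5 runs, and of the top 100 genes by control mean 6 lay in 3 runs. The share of all genes that lie in such runs was not computed, so these counts are a description only.

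Duplicates of the other genotypes differed as well. In dTIP60WT, 32 of 8628 genes were at least 2-fold higher in pool 1, 0.371%, and 117 in pool 2, 1.36%. In dTIP60E431Q, 120 of 8909 genes were higher in pool 1, 1.35%, and 124 in pool 2, 1.39%. Of the 79 genes higher in control pool 1, 17 were at least 2-fold higher in dTIP60WT pool 2, a share of 21.5%, and 1 in dTIP60WT pool 1. Of the 130 genes higher in control pool 2, 34 were at least 2-fold higher in dTIP60WT pool 2, 26.2%, and 2 in dTIP60WT pool 1. In dTIP60E431Q pool 2 the same sets had 13 genes, 16.5%, and 15 genes, 11.5%, and in dTIP60E431Q pool 1 they had 3, 3.8%, and 9, 6.92%. These dTIP60E431Q shares and those in dTIP60WT pool 2 were larger than the shares over all genes. So were those in dTIP60WT pool 1, at 1.27% and 1.54% against 0.371%, which rest on 1 and 2 genes. The lower control pool was at or below background for 55 of the 79 genes and 68 of the 130. Without a filter, 21.9% of genes with a control mean up to background passed 2-fold between control pools, against at most 2.66% at higher levels. The shares over all genes were not matched for level, so the comparison is a description only. Whether a pool number marks a shared day or batch across genotypes is not stated.

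Fbp1, Sgs3, Sgs7, Sgs8 and Eig71Ee were high in 1 pool of control larvae and in 1 pool of dTIP60WT larvae. Fbp1 gave 1329 and 7.09 in control pools 1 and 2, and 5.01 and 1015 in dTIP60WT pools 1 and 2. Sgs8 gave 304 and 3.53 in control larvae, against 1.67 and 357 in dTIP60WT larvae. CG17105 gave 2568 and 224 in control larvae, against 61.6 and 2745 in dTIP60WT larvae. In dTIP60E431Q larvae both pools were low for Fbp1, at 3.32 and 6.42, for Sgs8, at 5.5 and 2.72, and for CG17105, at 49.8 and 54.8. Within each of control and dTIP60WT the 2 pools did not resemble each other at Fbp1, Sgs8 and CG17105, and the dTIP60E431Q pools resembled each other. The glue gene Sgs5bis did not share this pattern. It gave 232 and 101 in control pools, 148 and 230 in dTIP60WT pools, and 132 and 46.2 in dTIP60E431Q pools.

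The cuticle genes of control pool 2 were arranged otherwise. TwdlB gave 63.7 and 1357 in control pools 1 and 2, 9028 and 10480 in the dTIP60E431Q pools, and 53.2 and 696 in the dTIP60WT pools. Summed over the 24 Tweedle genes, signal was 17580 and 30866 in control pools, 88806 and 107034 in dTIP60E431Q pools, and 19807 and 21610 in dTIP60WT pools. The single gene CG32181, at 36.6 and 646 in control pools, gave 45.2 and 40.1 in dTIP60E431Q pools and 39.6 and 52.2 in dTIP60WT pools, so that 1 array of 6 was high.

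**Figure D4:**
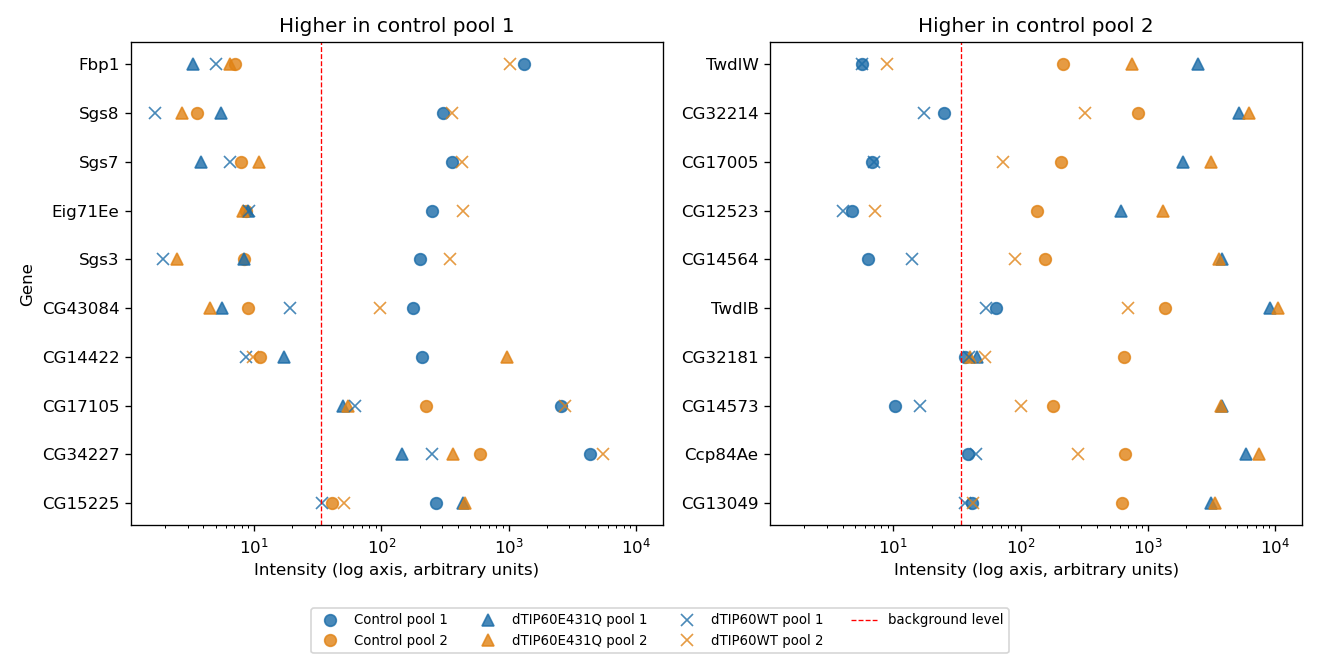
Intensity, on a log axis, of the 10 genes of largest difference in each direction among genes that reach 100 in the higher control pool; circles are control pools, triangles dTIP60E431Q pools and crosses dTIP60WT pools, with pool 1 in blue and pool 2 in orange, and the red dashed line is the background level of 33.8. Fbp1, Sgs7, Sgs8, Sgs3 and Eig71Ee are over 200 in control pool 1 and dTIP60WT pool 2 and under 11 in the other 4 arrays.

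The choice of probe set bears on some of the levels. Of 1094 genes with several single-symbol probe sets, 808 had sets that differed by more than 2-fold in mean, 345 by more than 10-fold, and for 497 only some sets lay above background. Among the 30 genes of highest signal, Mlp60A had 3 probe sets, the brightest at 13784 and the dimmest at 12.4, and Vajk2 had 2, at 15197 and 7897. In the ecdysone list br had 5 probe sets between 31.9 and 424, and Hr39 had 4 between 8.5 and 287. Only 1 of 4 sets of ImpE1 and 1 of 2 sets of Hr38 lay above background, while both sets of ftz-f1 did.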

How the data were processed

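The authors hybridised RNA of 6 pools of whole larvae to Affymetrix Drosophila Genome 2.0 arrays. According to the methods, arrays were quantitated in GCOS and normalized in dChip, which gives model-based expression indexes. The deposited intensity values, linear and uncentred, were taken to be these indexes; the probe model, baseline array and software versions are not given in the sources used here. The number of arrays, 2 control pools, limits the precision, and probe-level detection calls were not used here.

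Of 18952 probe sets, 183 Affymetrix controls were left out. Of the other 18769, 13647 had 1 gene symbol, 402 several and 4720 none in the platform annotation; certain genes were not analysed here. Each gene took its probe set of highest control mean. Genome neighbours were taken from RefSeq protein-coding genes (Release 6 plus ISO1 MT), where 88 of 11982 symbols had no entry.

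The background level was the 90th percentile of 198 genes in 5 lists. Pool differences are log2 of pool 1 over pool 2. No test was run. Named genes were the top 30, the members or the brightest members of each list, all storage, glue and ecdysone genes, and the 10 largest pool differences each way with a higher pool of at least 100; any others were named after their values were seen. The members and lists were chosen with earlier results of these data known. Fold counting was tested on simulated data, with large changes planted only in genes of mean over 100 and the same noise at every level. The simulation therefore does not cover counts of genes near background. Python 3.11.15 with pandas 2.3.3, numpy 2.4.6 and matplotlib 3.10.9 was used. Alternatives were other summaries of probe sets, other background levels, median scaling, quantile normalization, a pseudocount, filters and each control pool left out.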

Additional observations from a re-analysis of the deposited data

How the results depend on the processing

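No paired analysis was possible because the control pools were compared with each other and no test was run. The top 100 shared 87 genes with the ranking by the mean of all probe sets of a gene, 100 with quantile normalization or the geometric mean, and 61 when only probe sets with no _s_, _x_ or _a_ suffix were kept, which removes genes by construction. Ranking by 1 control pool alone kept 97 to 98. Genes above background numbered 7973, 6238 to 8831 under the other settings except the highest background gene as the level, which gave 4559, and 8281 to 8369 with 1 control pool left out. Lists with no fewer members above background than not numbered 31, 31 to 37 under the other settings except that same level, which gave 20, and 33 to 35 with 1 pool left out. For single lists, 412 of 470 values stayed within 1.5 times the count given, and 58 did not, 25 of them at that highest level. Without control pool 2, 10 of the 13 salivary genes and 6 of the 23 Osiris genes lay above background, and without control pool 1, 9 Osiris genes, 2 adult muscle genes and 4 egg shell genes. Gustatory and ionotropic receptors above it numbered 4 and 3 without control pool 1, and 6 and 3 without control pool 2. Of genes that differed 2-fold, 79 were higher in pool 1 and 130 in pool 2. Median scaling gave 73 and 138 and quantile normalization 74 and 135. A pseudocount of 16 gave 45 and 101, no filter on low values 498 and 464, a higher pool over 2 times background 38 and 94, all probe sets 132 and 162, the mean of probe sets 71 and 128, and a 4-fold limit 23 and 57. The share higher in pool 1 was 37.8% in the values given, 51.8% with no filter and 28.8% with the stricter filter. Values below background raised to it, an alternative chosen after seeing the data, gave 38 and 94. Sequence features of the top genes were planned and not run. Dim genes are limited by signal: at or below background the pools had a Pearson r of 0.68 across genes, against 0.99 above it.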

Other observations

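The gene ranking leaves out bright probe sets without a single symbol. Of the 100 probe sets of highest control mean, 51 were outside it, 48 with no symbol and 3 with several. The probe set shared by the cuticle genes Cpr65Ax1 and Cpr65Ax2 gave 15900 in control pool 1 and 17646 in control pool 2, the one shared by Adh, the alcohol dehydrogenase, and Adhr gave 14588 and 15728, and the one shared by CG42586 and CG31775 gave 12625 and 14365. In all, 4 probe sets without a single symbol had a mean over that of RpL41.

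Fuel and metal handling genes, not described above, were bright in both pools. The fatty acid synthase FASN1 gave 11413 in control pool 1 and 11228 in control pool 2, and 13 of 14 genes of lipid and sugar handling lay above background. The metallothionein MtnA gave 6472 and 6642, and the ferritin subunits Fer2LCH and Fer1HCH gave 5213 and 5870, and 5098 and 5652. All 11 glycolysis genes lay above background, led by Gapdh1 at 10308 and 10775. Of 9 heat shock and chaperone genes 7 did, 77.8% against 66.5% of all genes. The constitutive Hsc70-4 gave 9757 and 10016, and the heat-inducible Hsp68 gave 555 and 720.1.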
